A study of Mus musculus with 8 samples.

Results

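The late sterol enzymes turn lanosterol, the first sterol of the synthesis pathway, into cholesterol. Cyp51, Msmo1, Nsdhl, Hsd17b7, Tm7sf2, Ebp, Sc5d and Dhcr7, 8 of the 21247 genes tested, were taken as this group, through every non-control probe whose RefSeq transcript belongs to one of them. They have 11 probes, all of which passed the filter on dim probes (above background on at least 4 of 8 arrays), so all 8 genes are described. They were chosen with the genotype difference in these samples already known, so that difference is given here as a description and no test is drawn from it. RNA came from bone marrow cells of C57BL/6 background mice, sorted with magnetic beads for Ly6G, a surface protein of neutrophils. The groups were 4 wild-type samples (WT) and 4 samples labelled ATF3 KO, which lack the stress-induced transcription factor ATF3, and neither group received an agent according to the design text. Mouse age, sex and number are not given in the sources used here, nor whether animals were pooled or came from one litter. The sample notes of 7 of the 8 samples mention culture in methylcellulose with 4-OHT, which conflicts with the design text. The p-values of the fit measure only the spread between these samples.

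Lanosterol is made cholesterol by removing 3 methyl groups and moving or reducing double bonds, on enzymes anchored in the endoplasmic reticulum. Cyp51, a cytochrome P450, takes off one methyl group, and Tm7sf2 reduces the double bond that is left, a reaction that the lamin B receptor Lbr also carries out. Msmo1, Nsdhl and Hsd17b7 act in turn to remove the remaining pair of methyl groups, Ebp shifts a double bond, Sc5d adds one, and Dhcr7 reduces one of the last. The genes are classical targets of SREBP-2, a membrane-bound transcription factor released when sterols run low, which acts with NF-Y and Sp1 at promoters. Intermediates of this part of the pathway are ligands of nuclear receptors, and in human disease loss of Dhcr7 causes Smith-Lemli-Opitz syndrome.

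Since the members share a known regulator, their promoters are shown first. RefSeq windows (GRCm38.p6) from 250 bases before to 50 after a transcription start were found for all 8 genes, 1 window each except 3 for Dhcr7. Both strands were searched. The NF-Y box CCAAT was present in all 8 genes, against 37.4% of the 32851 windows of all genes. The Sp1 box GGGCGG was also present in all 8, against 35.7% of all windows. A loose form of the sterol regulatory element, TCACNNCA, was found in 6 genes (Cyp51, Msmo1, Nsdhl, Hsd17b7, Sc5d and Dhcr7) and in 13.8% of all windows. The stricter form TCACNCCAC was found in 0 of the 8 and in 1.24% of all windows. The element bound by ATF and CREB factors, TGACGTCA, was found in 0 of the 8 and in 1.79% of all windows, and the AP-1 element TGANTCA in Msmo1 and Dhcr7 and in 7.81% of all windows. Such a match is a description of letters, not a site in use, and genes with several windows have more chances of one.

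The stretches below run from 5 bases before the first to 5 bases after the last match that lies near and before the start. Capitals mark the NF-Y box, the Sp1 box and the loose sterol element as spelled above, on either strand, and in Msmo1 the NF-Y box nearest the 5′ end overlaps the sterol element. Cyp51, Msmo1, Hsd17b7 and Dhcr7 (1 of its 3 windows) are shown because their stretches hold all 3 kinds of match, and Tm7sf2 and Ebp because they are the 2 members without the loose sterol element. The Cyp51 stretch is chr5:4104717-4104837 (minus strand), that of Msmo1 chr8:64733624-64733679 (minus strand), that of Hsd17b7 chr1:169969208-169969344 (minus strand) and that of Dhcr7 chr7:143830124-143830204 (plus strand). The Tm7sf2 stretch is chr19:6067888-6067978 (minus strand) and that of Ebp chrX:8193535-8193572 (minus strand). All are written 5′ to 3′ on the strand of the gene, from GRCm38.p6.
Cyp51: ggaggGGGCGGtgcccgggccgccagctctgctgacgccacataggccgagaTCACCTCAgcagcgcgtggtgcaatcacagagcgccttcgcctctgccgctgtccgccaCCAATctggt
Msmo1: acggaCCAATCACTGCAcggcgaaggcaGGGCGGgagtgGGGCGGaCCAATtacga
Hsd17b7: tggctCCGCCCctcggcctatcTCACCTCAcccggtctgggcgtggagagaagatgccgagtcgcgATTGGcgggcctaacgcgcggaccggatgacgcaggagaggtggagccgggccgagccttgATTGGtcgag
Dhcr7: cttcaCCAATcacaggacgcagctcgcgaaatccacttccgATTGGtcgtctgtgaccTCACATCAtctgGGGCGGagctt
Tm7sf2: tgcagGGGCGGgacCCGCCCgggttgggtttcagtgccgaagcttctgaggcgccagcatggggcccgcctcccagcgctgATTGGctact
Ebp: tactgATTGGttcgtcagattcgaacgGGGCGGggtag

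The 8 arrays share 1 slide and 1 scan time. WT and ATF3 KO each filled a row of that slide, so the row cannot be told apart from genotype. Array brightness, taken as the 75th percentile of processed signal, ran from 151 to 216 intensity units in WT and from 113 to 161 in ATF3 KO. From 46.0% to 55.3% of probes were above background and no spot was saturated. Precision is limited by the number of arrays. The log2 signal of the Atf3 probe, relative to the 75th percentile, was 0.69, 0.82, 0.75 and 0.65 in WT and 1.53, 1.00, 1.41 and 1.02 in ATF3 KO. It was thus higher, not lower, in the samples with the deleted gene. The sources used here do not place this probe inside or outside the deletion, so it does not check the labels, and every direction below rests on them.

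All 8 late sterol enzymes had a lower mean in ATF3 KO than in WT, except that Tm7sf2 was higher when detected probes alone (above background on every array) set the percentile, in the deposited table and with brightness as a covariate. The median log2 difference of the 8 was −0.44, against −0.11 for all genes tested, which leaves −0.34 relative to all genes. The percentile over detected probes moved the median of all genes to 0.04, a constant per array that cannot change the relative value. The members' relative median was −0.22 under normexp and −0.25 in the deposited table. Of the 8, 0 passed the threshold of limma's test across all genes (adjusted p under 0.05), where 0.447% of all genes passed. At an unadjusted p under 0.05 there were 7, all lower, where 14.5% of all genes were lower at that level. The 4 ATF3 KO values lay below all 4 WT values for 1 of the 8, Hsd17b7, where this held for 10.9% of all genes. As the genes were chosen on this contrast, nothing is read from these counts. In bulk RNA, fewer cells of a type and less RNA per cell cannot be told apart.

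**Figure D1:**
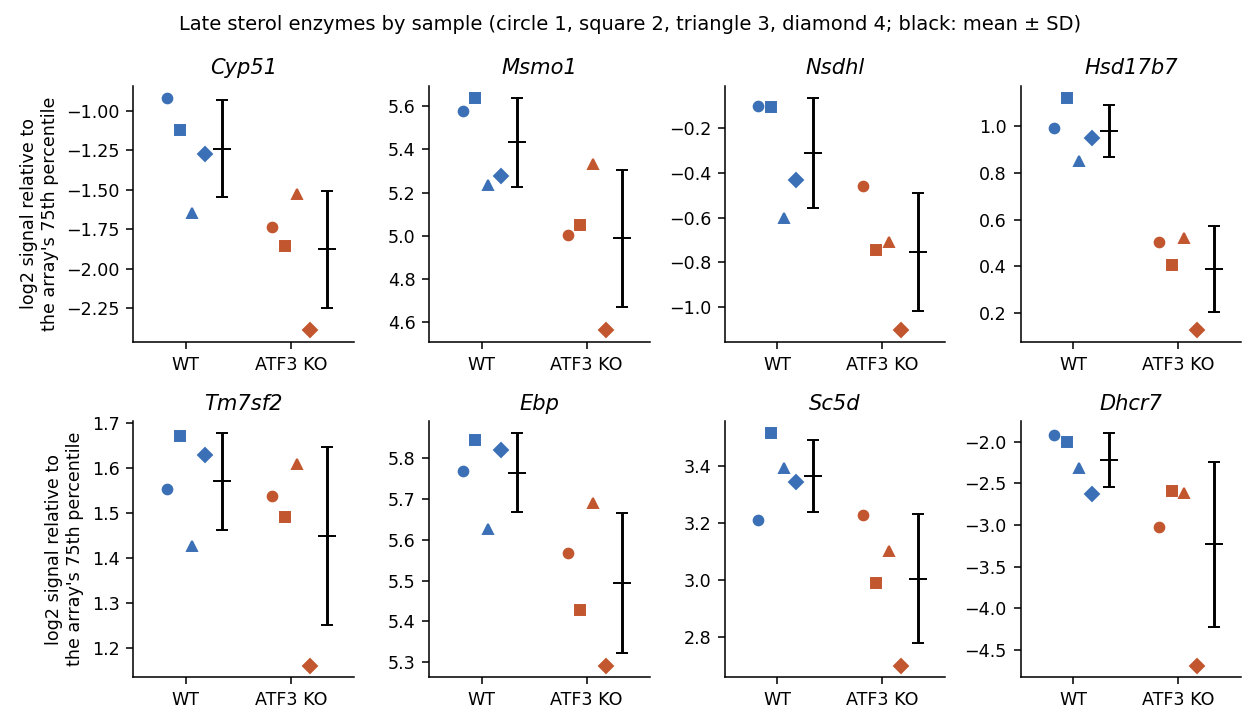
Log2 processed signal of the 8 genes relative to each array's 75th percentile, by genotype (each marker is 1 array, its shape the replicate number; black, mean ± SD, n = 4; each panel has its own axis, which does not start at 0). Hsd17b7 alone has groups that do not overlap, and the diamond of ATF3 KO replicate 4 is the lowest of 8 in every panel.

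Values are given below in replicate order 1 to 4, as log2 signal relative to the 75th percentile. Cyp51, the demethylase that opens the series, was at −0.91, −1.12, −1.64 and −1.27 in WT and at −1.73, −1.86, −1.53 and −2.39 in ATF3 KO. WT replicate 3 lay below ATF3 KO replicate 3, so the groups overlapped. The difference of the means was −0.64 (SE 0.21), and the within-group SD was 0.31 in WT and 0.37 in ATF3 KO (n = 4 each). Its signal was weak, from 21.5 to 114 intensity units. Under normexp background correction, whose offset of 50 is of the size of this signal, the difference was −0.20, and in the deposited log2 table it was −0.35.

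Tm7sf2, the sterol reductase that follows Cyp51, had the smallest difference of the 8, about the size of its error. It was at 1.55, 1.67, 1.43 and 1.63 in WT and at 1.54, 1.49, 1.61 and 1.16 in ATF3 KO. The first 3 ATF3 KO arrays lay inside the WT range, and replicate 4 alone lay below it. The difference was −0.12 (SE 0.12), or −0.01 relative to all genes, and it turned to 0.031 with the percentile over detected probes and to 0.053 in the deposited table. A second Tm7sf2 probe gave −0.24 (SE 0.11), also with overlapping groups. Lbr, which shares this reaction and also anchors chromatin at the nuclear envelope, was at −0.25 (SE 0.12).

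Msmo1, Nsdhl and Hsd17b7 form the demethylation step that removes the remaining pair of methyl groups. Msmo1, the oxidase, was at 5.58, 5.64, 5.24 and 5.28 in WT and at 5.01, 5.05, 5.33 and 4.56 in ATF3 KO. WT replicates 1 and 2 were high and ATF3 KO replicate 4 was low, while ATF3 KO replicate 3 lay above the lowest 2 WT arrays. The difference was −0.44 (SE 0.17), −0.29 with the percentile over detected probes and −0.60 under normexp.

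Nsdhl, the decarboxylating dehydrogenase, encoded on the X chromosome, was at −0.10, −0.11, −0.60 and −0.43 in WT and at −0.46, −0.74, −0.71 and −1.10 in ATF3 KO. ATF3 KO replicate 1 lay above WT replicate 3, and the difference was −0.44 (SE 0.17). The second, dimmer Nsdhl probe gave −0.28 (SE 0.14), and the first probe gave −0.20 under normexp, −0.27 in the deposited table and −0.29 with the percentile over detected probes.

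Hsd17b7, the ketoreductase that ends this step, had the clearest split. Its processed signal was 428, 470, 297 and 291 intensity units in WT and 227, 204, 199 and 123 in ATF3 KO. On the scaled log2 axis this was 0.99, 1.12, 0.85 and 0.95 in WT and 0.50, 0.41, 0.52 and 0.13 in ATF3 KO. Every WT array lay above every ATF3 KO array. The difference was −0.59 (SE 0.12), a 1.51-fold higher signal in WT, with an SD of 0.11 in WT and 0.18 in ATF3 KO (n = 4 each). The second Hsd17b7 probe also gave −0.59 (SE 0.14), with non-overlapping groups. Over the 21 alternatives it ran from −0.67 to −0.41, and it was the one member of the 8 that no alternative moved by over 1.5 times. Some of these, such as the replicate block and the trend and robust variances, cannot change the difference itself. Hsd17b7 lies on chromosome 1, as Atf3 does, and it is the only one of the 8 on that chromosome. A link between this position and the difference was not tested.

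Ebp, the isomerase, also on the X chromosome, was at 5.77, 5.84, 5.63 and 5.82 in WT and at 5.57, 5.43, 5.69 and 5.29 in ATF3 KO. ATF3 KO replicate 3 lay above WT replicate 3, and the difference was −0.27 (SE 0.11). Sc5d, the desaturase, was at 3.21, 3.52, 3.39 and 3.35 in WT and at 3.23, 2.99, 3.10 and 2.70 in ATF3 KO. Only ATF3 KO replicate 1 reached the WT range, just above WT replicate 1, and the difference was −0.36 (SE 0.13). Both shrank by over 1.5 times in the deposited table, to −0.12 for Ebp and −0.22 for Sc5d, and about as far with quantile normalization (−0.14 and −0.21) and with the percentile over detected probes (−0.12 and −0.21). Under normexp both were wider, at −0.35 for Ebp and −0.43 for Sc5d.

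Dhcr7, the last reductase of this group, had the widest measured difference and the widest error. Its processed signal was 56.7, 53.8, 33.0 and 24.3 intensity units in WT and 19.7, 25.5, 22.6 and 4.36 in ATF3 KO. The last value was not well above background, so 3 of 4 ATF3 KO arrays measured it. The scaled values were −1.92, −2.00, −2.32 and −2.63 in WT and −3.03, −2.59, −2.62 and −4.69 in ATF3 KO. ATF3 KO replicates 2 and 3 lay just above WT replicate 4. The difference of −1.01 (SE 0.42) was −0.53 without ATF3 KO replicate 4. It was −0.10 under normexp and −0.28 from the deposited table. The SD was 0.99 in ATF3 KO against 0.32 in WT.

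The 8 genes moved together from array to array. ATF3 KO replicate 4 was the lowest of the 8 arrays for 8 of 8 members, and the highest array was WT replicate 2 for 5 and WT replicate 1 for 3. The mean deviation of the 8 from their own means was 0.34, 0.39, 0.07 and 0.16 in WT and −0.10, −0.15, −0.00058 and −0.72 in ATF3 KO. The last of these includes the Dhcr7 value that was not well above background, as do all correlations with the members' mean below. After each genotype's mean was subtracted, all 28 pairs of members had a correlation above 0 over the 8 arrays, with a median of 0.82 and a range from 0.48 (Cyp51 and Sc5d) to 0.95 (Hsd17b7 and Tm7sf2). These points share array brightness, and 20.0% of the 13067 other named genes correlated with the members' mean above 0.8, so the covariation was shared widely.

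Array brightness moved with both the genotype and the members. The members' mean correlated at 0.79 with the log2 75th percentile over the 8 arrays after the genotype means were subtracted, a description with no test. The WT arrays 1 and 2, the brightest, held the high values, and ATF3 KO replicate 4, the dimmest, held the low ones. The arrays between did not keep this order. WT replicate 4 (151 intensity units) had a higher mean deviation than the brighter WT replicate 3 (164), at 0.16 against 0.07. ATF3 KO replicate 3 (138) had the highest mean of its genotype, though replicates 1 and 2 were brighter (161 and 154). With log2 brightness as a covariate, an alternative chosen after seeing the data, the median difference relative to all genes was −0.09 in place of −0.34. Hsd17b7 was then at −0.41, Cyp51 at −0.25, Sc5d at −0.21, Ebp at −0.17, Dhcr7 at −0.13, Msmo1 at −0.13, Nsdhl at −0.07 and Tm7sf2 at 0.026. With 8 arrays, brightness and genotype are only partly separable. Without ATF3 KO replicate 4 the median relative to all genes was −0.23, and Tm7sf2 was at −0.02.

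**Figure D2:**
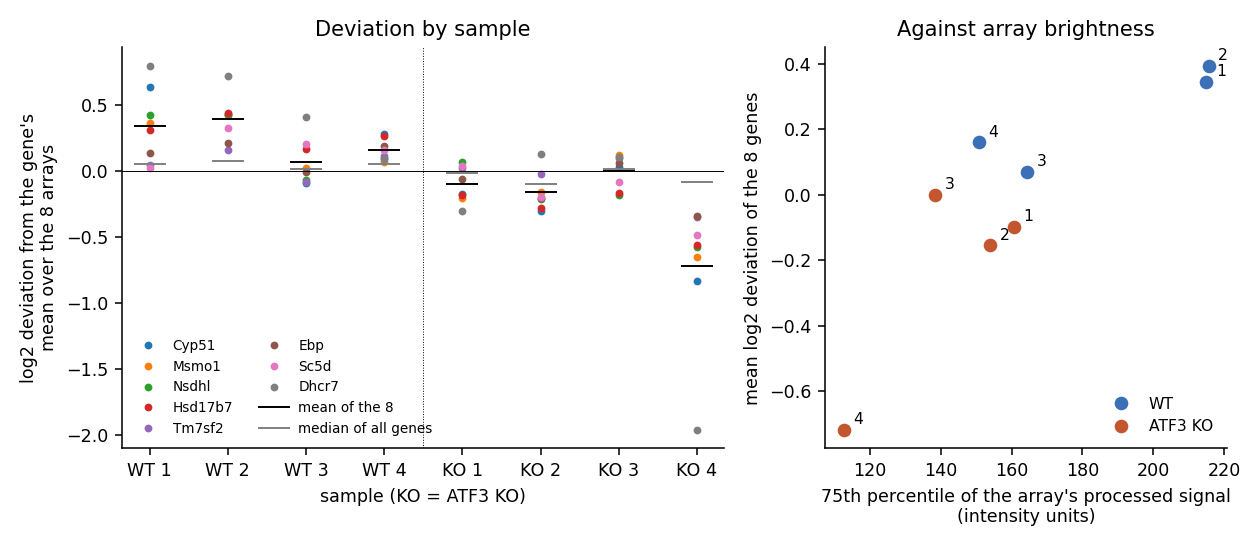
Left, each gene's log2 deviation from its mean over the 8 arrays (coloured points), their mean (black bar) and the median of all genes (grey bar), by sample. Right, the mean deviation of the 8 genes against the 75th percentile of the array's processed signal in intensity units, 1 numbered point per array. The 2 brightest arrays, both WT, have the highest means and the dimmest, ATF3 KO replicate 4, the lowest. Between them the order is not kept, as WT replicate 4 lies above the brighter WT replicate 3.

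Other genes of the pathway lay on the same side. Lbr, given above beside Tm7sf2, followed the members' mean within genotypes (r = 0.94 over 8 arrays). Erg28, a scaffold that holds the demethylating enzymes together in yeast, was at −0.36 (SE 0.10) with non-overlapping groups, which overlapped under median scaling, and followed that mean less closely (r = 0.65). Of these 2 genes, 0 passed limma's adjusted threshold (0.447% of all genes) and 1 was lower at an unadjusted p under 0.05 (14.5% of all genes).

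The 10 genes measured here from acetyl-CoA to lanosterol had a median log2 difference of −0.57, from −0.75 for Fdps to −0.04 for Acat2. Relative to all genes this median was −0.46, and −0.18 with brightness as a covariate. All 10 were lower in ATF3 KO, except that Acat2 was higher under normexp, with the percentile over detected probes, in the deposited table and with brightness as a covariate. Of the 10, 6 were lower with non-overlapping groups (10.9% of all genes), 9 were lower at an unadjusted p under 0.05 (14.5%) and 0 passed limma's adjusted threshold (0.447%). The number past it was 3 with normexp, where 1.11% of all genes passed, and 1 in the deposited table, where 0.706% did. Under median scaling 2 of the 10 and 3.45% of all genes were lower without overlap. Sqle, which adds the oxygen to squalene, was at −0.74 (SE 0.18), and Lss, which closes the rings into lanosterol, at −0.70 (SE 0.27). Lss was weak and not well above background in ATF3 KO replicate 4, so 3 of 4 ATF3 KO arrays measured it. Lss and Sqle followed the late enzymes within genotypes (r = 0.95 and 0.93 over 8 arrays). A difference between the early and the late enzymes was not tested.

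**Figure D3:**
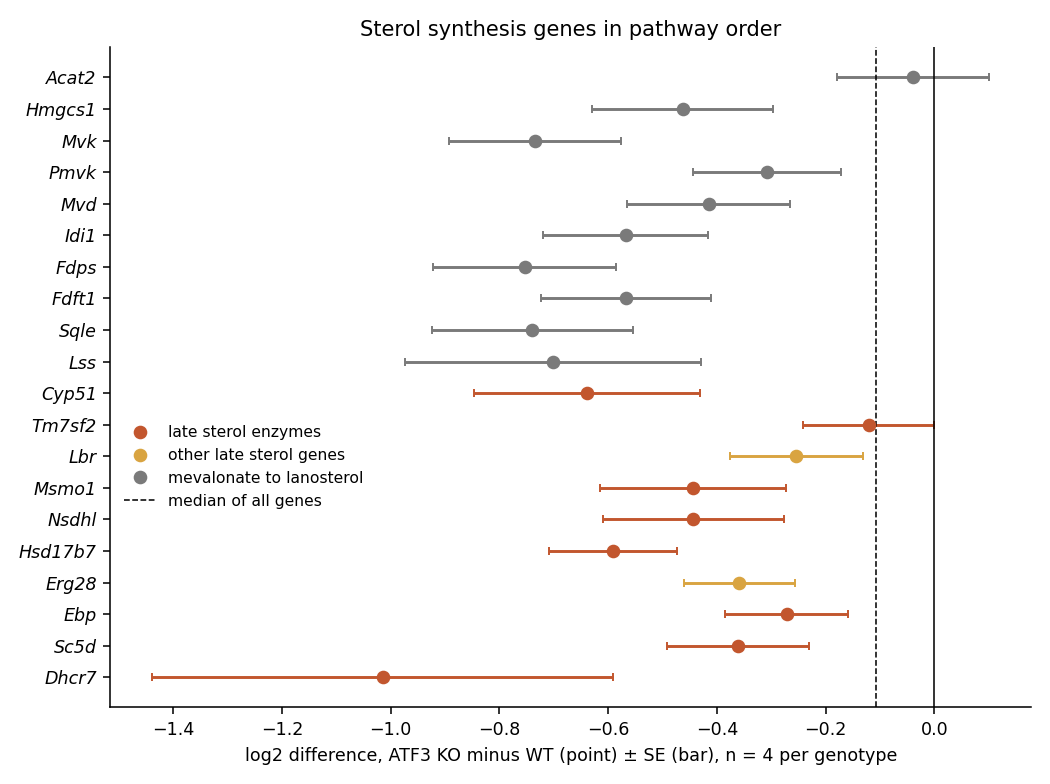
Log2 difference, ATF3 KO minus WT, of 20 sterol synthesis genes in pathway order (points, with bars of ± SE from the limma fit, 4 arrays per genotype); the solid line is 0 and the dashed line the median of all genes at −0.11. All 20 points lie below 0, of which Tm7sf2 and Acat2 lie close to or above the dashed line and turn above 0 under some other scalings.

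Of 17 genes of SREBP-2 regulation, sterol uptake and efflux, 16 were tested. Their median log2 difference was −0.26, with 15 lower and Soat1 higher. Across the other scalings from 13 to 16 were lower, with Soat1 lower under median scaling, Mbtps2 higher under normexp, and Abcg1 and Mylip higher under quantile normalization, the percentile over detected probes and the deposited table. Of the 16, 2 were lower without overlap (10.9% of all genes), 8 were lower at an unadjusted p under 0.05 (14.5%) and 0 passed limma's adjusted threshold (0.447%). The number without overlap was 5 under normexp (10.7% of all genes) and 0 under median scaling (3.45%). Srebf2, the gene of SREBP-2, was at −0.43 (SE 0.15), and Insig1, which retains the SREBP complex, at −0.59 (SE 0.20). Within genotypes their correlation with the members' mean was r = 0.84 and 0.59 over 8 arrays. The sterol exporters Abca1 (−0.16, SE 0.14) and Abcg1 (−0.13, SE 0.11), targets of the oxysterol receptor LXR, lay near the median of all genes. The same correlation was r = −0.52 for Abca1 and 0.16 for Abcg1. All these lists share the 8 arrays and the same contrast, and no difference between them was tested.

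The genes most like the members in pattern were taken as the 5 named genes with the highest correlation to the members' mean over the 8 arrays after each genotype's mean was subtracted. They were Aph1b, Kif1c, Wapl, Sf3b2 and Stk11, with r from 0.992 to 0.998, chosen as the highest of 13067. Aph1b ran at 3.71, 3.78, 3.53 and 3.59 in WT and at 3.47, 3.40, 3.51 and 2.98 in ATF3 KO, with ATF3 KO replicate 4 again lowest. Its difference was −0.31 (SE 0.13). That of Kif1c was −0.37, of Sf3b2 −0.22, of Wapl −0.22 and of Stk11 −0.15.

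Marker genes of the cells that the sort could hold were also compared between the genotypes, as sums of signal relative to the 75th percentile over the measured markers. Of 10 neutrophil markers 9 were tested and no probe was matched here to Ly6g itself. Their sum was 6691 to 8580 in WT and 8352 to 10445 in ATF3 KO, with overlap. Of the 9, 5 were higher and 4 lower, with a median log2 difference of 0.17 that was −0.03 in the deposited table. B-lineage markers (10 of 10 tested, all higher except Pax5 with brightness as a covariate) summed to 44.4 to 67.0 in WT and 93.1 to 103 in ATF3 KO, which do not overlap. Stroma and endothelium markers (8 of 8, all lower except Pecam1 with the percentile over detected probes) summed to 68.7 to 97.5 and 40.1 to 59.4, and do not overlap either. The sums overlapped for monocytes and macrophages (8 of 10 tested; 296 to 343 and 245 to 319), erythroid cells (8 of 8; 1757 to 2150 and 1910 to 2493), megakaryocytes (6 of 6; 22.9 to 34.9 and 25.2 to 67.4) and eosinophils and basophils (8 of 8; 25.3 to 35.7 and 32.2 to 52.8). They also overlapped for T and NK cells (4 of 7; 9.39 to 11.2 and 6.85 to 9.52, with Cd8a, Ncr1 and Klrb1c above background on no array) and dividing cells (8 of 8; 104 to 186 and 123 to 146). Within the overlapping sums, 7 of 8 monocyte and macrophage markers were lower, 3 without overlap (10.9% of all genes). That number stayed at 3 under normexp and with brightness as a covariate. It fell to 1 in the deposited table, under median scaling, when detected probes alone set the percentile, and after quantile normalization. In these 4 settings 3.45% to 8.17% of all genes were lower without overlap. Among the lists with overlapping sums, 2 single markers passed limma's adjusted threshold (0.447% of all genes). Named after their values were seen, these were Vsig4, a macrophage receptor, lower by a log2 difference of −0.92 (adjusted p = 0.0481), and Gata2, a factor of basophils and mast cells, higher by 0.75 (adjusted p = 0.0494). Of the 8 eosinophil and basophil markers 3 were higher and 5 lower, the lower ones including Mcpt8, Cpa3 and Fcer1a. Under normexp 5 of them were higher and 3 lower. Across the other scalings, 1 or 0 of the macrophage list and 0 of the basophil list passed. Of the B-lineage list 3 passed in the deposited table (0.706% of all genes), 1 with normexp (1.11%) and 1 under median scaling (1.02%). Of the stroma and endothelium list 2 passed with normexp. The part of any of these cell types in the sterol values was not tested.

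**Figure D4:**
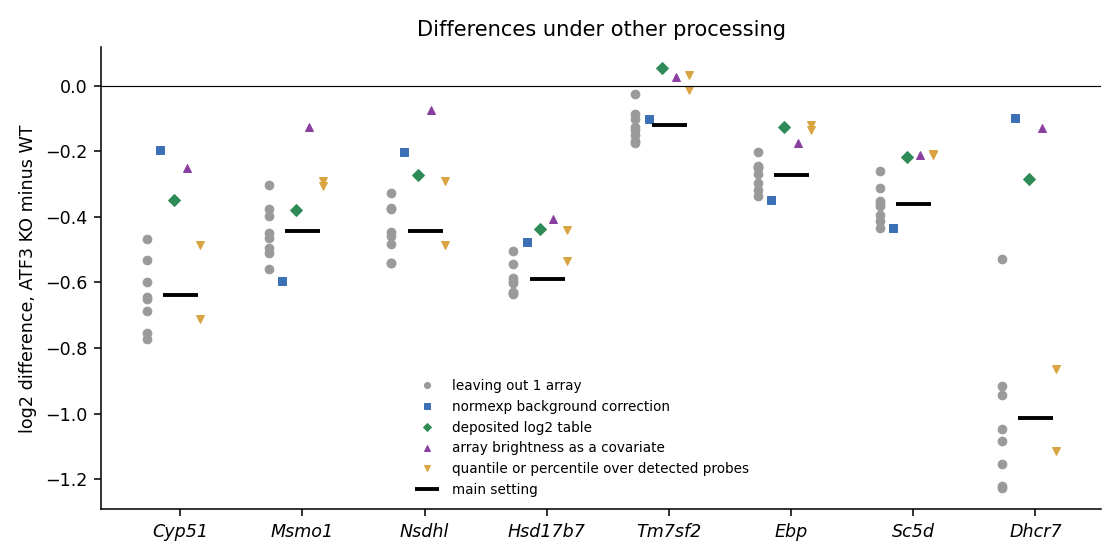
Log2 difference, ATF3 KO minus WT, of each of the 8 genes in the main setting (black bar) and under part of the alternatives (1 point per setting). Grey circles leave out 1 array each, and median scaling is among the settings not drawn. Among the points drawn, Hsd17b7 stays between −0.635 and −0.407 and Tm7sf2 crosses 0. The weak probes of Cyp51 and Dhcr7 move most with the background correction.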

How the data were processed

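Cy3-labelled RNA of 8 samples was put on Agilent mouse arrays with 1 colour, as the labels' protocols state. In the deposited scanner files each spot has a linear intensity. Per the file headers, it was corrected for background and for spatial trend inside an array by Agilent Feature Extraction 10.9.1.1 (the submitters' processing notes name 10.10). A series-wide deposited table gives log2 values, with no statement of how they were centred or scaled. Each of its columns correlated best with the median signal of its own array (r from 0.998 to 1.000), its column medians were 6.15 to 6.17, and it served as an alternative.

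Spots flagged as outliers were left out and spots of a probe averaged. Processed signals were put on the log2 scale and the 75th percentile of 55681 probes was subtracted within an array (50.02% of probe values were above background). Probes above background on at least 4 of 8 arrays were kept (27942), and the probe with the highest mean stood for each of 21247 genes. Symbols came from RefSeq accessions, without versions, in a GRCm38.p6 table (27235 probes matched), while the headers name mm9, so the one set of coordinates printed is that of the promoter windows, on GRCm38.p6. Genotypes were compared by lmFit and eBayes with Benjamini-Hochberg adjustment (limma 3.58.1, R 4.3.3), a step tested on simulated data.

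The members and gene lists were chosen with earlier results of these data known. Named are all 8 members with every probe, Atf3, pathway genes chosen by role (a few are not reported here and were left out of the lists), and the 5 genes most alike within genotypes. No array was identical to another of its genotype (smallest root mean square difference 0.282 on the log2 scale), and arrays of different genotypes were not compared this way. Alternatives changed the background correction, scaling, filter, choice of probe, variance model, weights, replicate block, source table or arrays.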

Additional observations from a re-analysis of the deposited data

How the results depend on the processing

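Of the member differences, those of Tm7sf2 changed sign, to 0.031 with the percentile over detected probes, 0.053 with the deposited log2 table and 0.026 with array brightness as a covariate. The other 7 members were lower in ATF3 KO under every alternative that tested them (Dhcr7 could not be tested with the filter on all 8 arrays). Some alternatives, such as the trend and robust variances, cannot change a difference. Hsd17b7 passed the adjusted threshold with trend and robust variances, where 0.904% of all genes passed, and with array weights, where 0.974% did. It was the only member call under any alternative, so members past the threshold came to 1 in each of these settings and to 0 elsewhere. Members with non-overlapping groups, all lower in ATF3 KO, numbered 4 with normexp (10.7% of all genes) and 3 with quantile normalization (8.17%). The number was 2 with the mean of a gene's probes (10.9%) and 2 with the deposited log2 table (7.3%). When 1 array was left out it ran from 1 to 4, where 11.7% to 20.9% of all genes were lower without overlap. The median of the members relative to all genes ran from −0.41 to −0.23 without 1 array.

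Genes past the threshold numbered 95 (78 higher, 17 lower) in the main setting. The count was 236 (152 and 84) with normexp, 31 (22 and 9) with quantile normalization, 217 with median scaling, 44 with the percentile over detected probes, 10 with no filter, 192 with trend and robust variances, 150 with the deposited log2 table, 58 with every probe tested, 207 with array weights, 27 with array brightness as a covariate and from 9 to 234 without 1 array.

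Replicate numbers are shared by the genotypes, but the labels give no pairing. Same-numbered samples deviated together with r = 0.19, −0.13, −0.27 and 0.18, and differently numbered ones with r from −0.31 to 0.30. These values cannot decide whether the numbers pair the samples. With the replicate block 72 genes and 0 members passed, while a balanced block leaves the differences themselves as they are. Cyp51 and Dhcr7 had low signal, and their differences shrank by over 1.5 times under normexp and in the deposited table. That of Nsdhl did so under both too, and those of Ebp and Sc5d did so in the deposited table. The cause was not tested.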
